A study of Mus musculus with 18 samples.

Results

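Mouse lungs that lack the long non-coding RNA Falcor (Falcor-/-) were set directly against lungs with a single working copy of its neighbour Foxa2 (Foxa2+/-). The comparison used every library with either genotype, 5 Falcor-/- libraries (replicates 6 to 10) and 4 Foxa2+/- libraries (replicates 11 to 14), which are 9 of the 18 libraries in the study. The other 9 are wild type (n = 5, replicates 1 to 5) and Double-Het (n = 4, replicates 15 to 18), the latter labelled as carrying Falcor+/- together with Foxa2+/-; their levels are given beside the results for reference. Total RNA was sequenced from EpCAM-positive cells, the epithelial fraction, pulled out with magnetic beads, and the study's design text gives an age of 10 to 12 weeks. The labels name no promoter or Cre line, so the cells in which either gene was deleted are not stated. They also do not say that each library is a separate animal, and p-values then measure only the spread between these libraries. Of 15544 genes in the deposited tables, the 15249 with a mean level of 6 or more log2 units over the 18 libraries were tested. A difference is the Falcor-/- mean minus the Foxa2+/- mean in log2 units, so 1 is a doubling, and a gene is called where limma's p after Benjamini-Hochberg adjustment over all genes tested is below 0.05.

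Foxa2 is a forkhead transcription factor that holds lung epithelium in its differentiated state, and mice that lose it in the airway develop mucous cells and inflammation. Falcor is transcribed from the neighbouring locus, annotated as 9030622O22Rik, and is studied as a regulator of Foxa2. The adult lung epithelium is built from ciliated, club and mucus-secreting cells in the airways and from alveolar type 1 cells, which form the gas exchange surface, and alveolar type 2 cells, which make surfactant. Comparing the genotypes with each other asks which genes separate loss of the RNA from loss of a Foxa2 copy, without wild type as the common reference.

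The labelled cell type was checked against its markers. Epcam lay between 13.81 and 14.32 in the 9 libraries and did not differ (difference 0.19, adjusted p = 0.213). Sftpc, the surfactant protein of type 2 cells, lay at 18.73, the highest value in the tables, in every Falcor-/- library, and at 18.56 or 18.73 in the Foxa2+/- libraries. The normalization sets values this high by rank, so a difference appears only as a change of rank, such as 18.56 against 18.73. Its size cannot be read from them. Scgb1a1 of club cells lay between 17.40 and 18.21. The libraries also held RNA of other cells: Ptprc, carried by all leukocytes, lay between 13.80 and 14.51, and Pecam1 of endothelium between 11.52 and 14.30. In such bulk samples fewer cells of a type and less RNA per cell cannot be told apart.

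Falcor itself differed by -5.49 in Falcor-/- (SE 0.29, adjusted p = 8.96e-09; exact permutation p = 0.00794, the smallest that 5 against 4 libraries can give). Its level was 6.13, 5.39, 6.01, 7.27 and 6.23 in Falcor-/- replicates 6 to 10 and 11.46, 11.96, 11.66 and 11.72 in Foxa2+/- replicates 11 to 14. The groups lay far apart, and replicate 9 was the highest of the knockouts. The Foxa2+/- libraries also lay above all wild-type libraries, which ran from 9.68 to 10.72, and beside the Double-Het mean of 11.66. Foxa2 was called 0.34 higher in Falcor-/- (SE 0.10, adjusted p = 0.0353; exact permutation p = 0.0397). It lay at 12.85, 12.58, 12.99, 12.83 and 12.42 in Falcor-/- and at 12.37, 12.38, 12.35 and 12.47 in Foxa2+/-, so the tightly grouped heterozygotes overlapped only Falcor-/- replicate 10. The wild-type mean was 12.97 and the Double-Het mean 12.36. The call on Foxa2 was lost in 7 of the 9 runs that left out a library, all except those without Falcor-/- replicate 7 (difference 0.38, adjusted p = 0.0170) or replicate 10 (0.42, adjusted p = 0.0173), and had adjusted p between 0.0588 and 0.101 in the 7. The promoter of Falcor is shown because it holds the letters bound by forkhead factors. In the RefSeq window (GRCm38.p6, chr2:148040464-148040763, minus strand), from 250 bases before to 50 after the annotated start, capitals mark the only match to TGTTTAC or its reverse complement GTAAACA:
Falcor: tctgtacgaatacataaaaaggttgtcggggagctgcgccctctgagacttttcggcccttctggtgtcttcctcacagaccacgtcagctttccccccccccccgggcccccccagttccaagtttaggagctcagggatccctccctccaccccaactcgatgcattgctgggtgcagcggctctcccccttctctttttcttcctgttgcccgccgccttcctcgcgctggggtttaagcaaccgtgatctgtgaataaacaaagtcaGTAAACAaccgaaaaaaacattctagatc
The match covers bases 22 to 28 after the start, counting the start as 1. These letters occur on either strand in 3.52% of the 27025 promoter windows of the same length, and a match is a description of the sequence, not of binding.

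**Figure D1:**
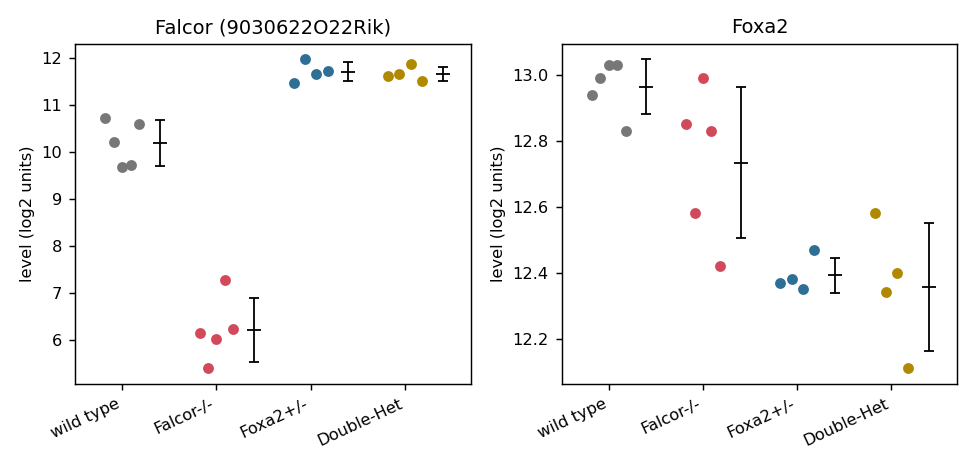
Levels of Falcor and Foxa2 (log2 units, vertical axes) in each of the 18 libraries by genotype; bars give mean and SD. Falcor-/- libraries sit between 5.39 and 7.27 for Falcor, and Foxa2+/- libraries between 12.35 and 12.47 for Foxa2.

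Among the tested genes nearest to the pair, 10 on each side of Foxa2, only Cst3 and Ralgapa2 were also called. Genes in between that were not tested are skipped. Over all genes tested, 16.7% were called, and on chromosome 2 17.6%, so these calls do not set the neighbourhood apart. Cst3, which encodes the protease inhibitor cystatin C, was 0.44 higher in Falcor-/- (adjusted p = 0.0299), and Ralgapa2, a subunit of a GTPase-activating complex, differed by -0.69 (adjusted p = 0.0410). Xrn2, the next tested gene on the Falcor side, differed by -0.01 (adjusted p = 0.913). Both calls were fragile: that on Cst3 was lost in 6 of the 9 left-out runs (without Falcor-/- replicates 6, 9 or 10 or Foxa2+/- replicates 12, 13 or 14), and that on Ralgapa2 in those and without Foxa2+/- replicate 11, 7 in all.

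Over all genes, 2540 were called, 16.7% of those tested, of which 1305 (8.56%) were higher and 1235 (8.10%) lower in Falcor-/-. The median size of a called difference was 0.57, and 608 differed by 1 or more, 351 higher and 257 lower. In 1881 genes (12.3%) the 5 and the 4 libraries did not overlap at all, with Falcor-/- higher in 1046 (6.86%) and lower in 835 (5.48%). Pearson's r across genes was 0.966 to 0.977 between Falcor-/- libraries and 0.971 to 0.979 between Foxa2+/- libraries. Between libraries of different genotype it was 0.938 to 0.969, a range that overlaps that within Falcor-/- but not that within Foxa2+/-. The first principal component of the 9 libraries took 41.0% of the variance and placed the Foxa2+/- libraries between 26.1 and 43.1 and the Falcor-/- libraries between -42.8 and -3.7. Falcor-/- replicate 7, at -3.7, stood nearest to the heterozygotes. The spread within a genotype was wider in the knockouts, with a median SD per gene of 0.229 against 0.143.

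The number of calls depended on single libraries. Without Falcor-/- replicate 7 it was 4742, and without Foxa2+/- replicate 13 it was 764. It was 1438, 1325 and 1310 without Falcor-/- replicates 6, 9 and 10, 1333 and 1292 without Foxa2+/- replicates 12 and 14, and 2272 and 2394 without Falcor-/- replicate 8 and Foxa2+/- replicate 11.

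**Figure D2:**
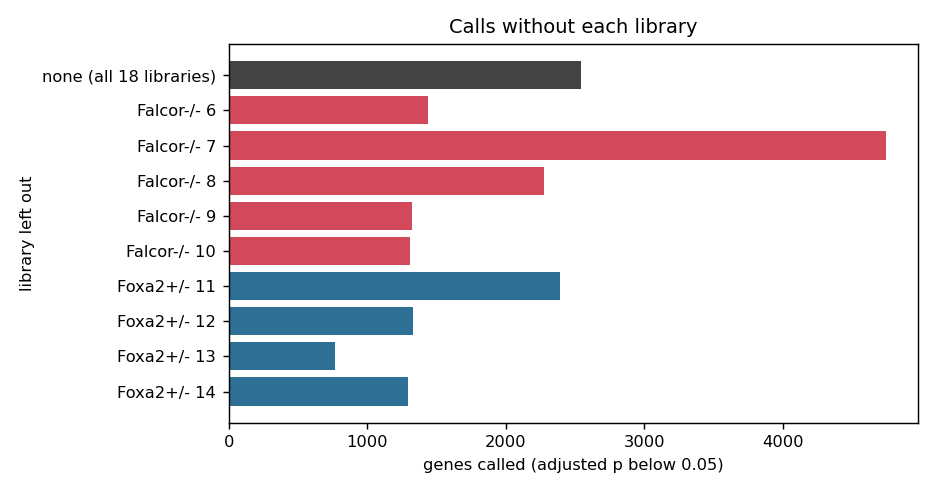
Genes called (horizontal axis, count of genes with adjusted p below 0.05) with all libraries and with each of the 9 libraries left out in turn. The count runs from 764 without Foxa2+/- replicate 13 to 4742 without Falcor-/- replicate 7.

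The wild-type and Double-Het libraries enter neither mean and were placed relative to both. The wild-type mean fell between the Falcor-/- and Foxa2+/- means in 1845 of the 2540 called genes (72.6%) and in 41.8% of all genes tested. Called genes have wider gaps between these means by selection, so nothing is read from the difference of these shares. It was nearer to Foxa2+/- in 1475 (58.1%) and nearer to Falcor-/- in 1065 (41.9%), shares close to those over all genes tested (58.8% and 41.2%). The Double-Het mean also fell between them in 77.2% of called genes and 47.9% of all, and was nearer to Foxa2+/- in 49.7%.

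The genes furthest higher in Falcor-/- included enzymes, a kinase and vascular and stromal genes. Camk2b, a calcium and calmodulin dependent kinase best known from neurons, lay at 10.18, 10.41, 9.76, 9.33 and 10.48 in Falcor-/- and at 2.69, 5.08, 4.41 and 4.51 in Foxa2+/-, a difference of 5.86 (SE 1.08, adjusted p = 0.00498). Wild-type libraries spread from 4.68 to 9.89. Aass, the first enzyme of lysine breakdown, lay at 14.81, 14.05, 13.90, 14.10 and 13.93 in Falcor-/- against 11.38, 11.51, 11.40 and 11.42 (difference 2.73, SE 0.51, adjusted p = 0.00560). For Aass the knockouts also lay above all wild-type libraries, which ran from 10.01 to 11.63, and the Double-Het mean was 12.76. Of 13 lysine breakdown genes tested, 2 were called higher and 1 lower (23.1% called, against 16.7% of all genes). Beside Aass these were Pipox, a peroxisomal oxidase (0.79), and Dhtkd1, a mitochondrial dehydrogenase subunit (-0.73), and both lost their calls without Foxa2+/- replicate 13. Pipox lost its call in 6 other left-out runs as well, without Falcor-/- replicates 6, 8, 9 or 10 or Foxa2+/- replicates 12 or 14.

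Several of the largest rises had wild-type means near or above the Falcor-/- level. Fgfr4, a receptor for fibroblast growth factors, lay at 8.52, 7.81, 8.11, 8.48 and 9.73 in Falcor-/- and at 6.57, 6.19, 6.20 and 6.30 in Foxa2+/- (difference 2.22, SE 0.40, adjusted p = 0.00424), with a wild-type mean of 9.16. Postn, the matrix protein periostin, was 2.28 higher (adjusted p = 0.00508) with means of 11.18 in wild type and 7.87 in Double-Het. The amino acid transporters Slc7a10 and Slc38a5 were 2.22 and 2.29 higher (adjusted p = 0.00375 and 0.00623), against wild-type means of 8.50 and 7.85. Colq, the collagen tail of acetylcholinesterase, was 2.33 higher, and Col13a1, a membrane collagen, 2.19 higher (adjusted p = 0.00320 and 0.00649). Ccn5 (2.23) and the beta-globin Hbb-bs (2.20) completed those whose call held in every left-out run. Afm (2.75) lost its call without Falcor-/- replicates 6 or 10 or Foxa2+/- replicates 13 or 14, and Slc14a1, a urea transporter (2.51), without Foxa2+/- replicates 13 or 14.

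The genes furthest lower in Falcor-/- were led by a protease and by genes of macrophages and host defence. Mmp13, a collagenase, lay at 3.18, 7.97, 3.86, 7.92 and 2.81 in Falcor-/- and at 9.70, 9.77, 10.45 and 9.60 in Foxa2+/- (difference -4.73, SE 0.88, adjusted p = 0.00508). Falcor-/- replicates 7 and 9 were the 2 high values, and the same pair was high for F13a1, a transglutaminase subunit of monocytes and macrophages, at 4.81, 10.87, 5.91, 10.39 and 7.52 against 12.37, 12.01, 13.09 and 11.60 (difference -4.37, SE 0.91, adjusted p = 0.00787). Double-Het means of both were low as well, at 4.28 and 5.81, and wild-type means were 8.96 and 11.87. Leaving out both replicates 7 and 9, an alternative chosen after seeing the data, gave 2992 called genes. C2cd4b, a nuclear protein gene, lay at 8.77, 7.30, 8.71, 10.58 and 8.46 against 11.64, 11.38, 11.39 and 11.59 (difference -2.74, adjusted p = 0.00263). Glt1d1, a glycosyltransferase gene, differed by -2.90 and Abcc8, a subunit of potassium channels, -3.16 (adjusted p = 0.00167 and 0.00660). Cd177 differed by -2.88 and Fcna, a lectin of macrophages, -2.79 (adjusted p = 0.00424 and 0.00293). Prss22, a serine protease, had the most uneven values: 12.03 in Foxa2+/- replicate 13 but 8.41 or less in the other 3, and its call (difference -3.33, adjusted p = 0.0497) was lost in 7 of 9 left-out runs, all except those without Falcor-/- replicate 7 or Foxa2+/- replicate 11.

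**Figure D3:**
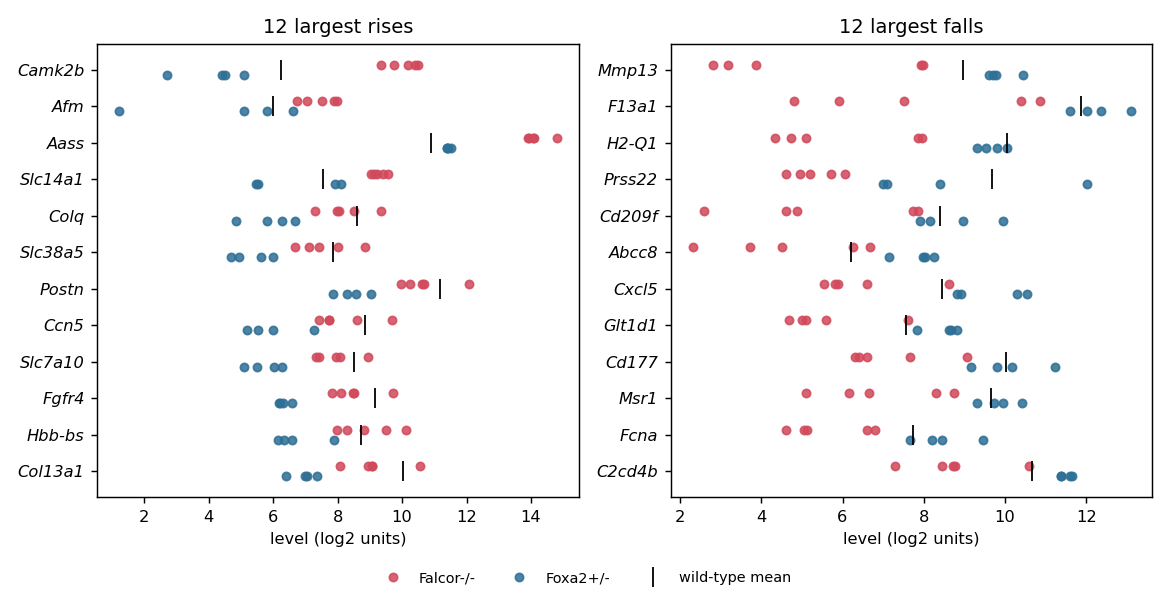
Levels (log2 units, horizontal axes) of the 12 largest rises and 12 largest falls in Falcor-/- relative to Foxa2+/-; points are libraries and black ticks the wild-type mean. In the falls, Falcor-/- replicates 7 and 9 form the high pair for Mmp13 (7.97 and 7.92) and F13a1 (10.87 and 10.39).

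Many ciliated cell markers were higher in Falcor-/-. Of 38 tested, 20 were called higher and none lower (52.6% called, against 16.7% of all genes). The median difference was 0.56 against 0.00 over all genes tested. The called members spanned the outer and inner machinery of the cilium and its regulators. Dnaic1, an intermediate chain of the outer dynein arm, lay at 12.00, 11.21, 11.91, 11.77 and 11.55 in Falcor-/- and at 10.88, 11.01, 10.32 and 10.79 in Foxa2+/- (difference 0.94, SE 0.15, adjusted p = 0.00250). The genotypes did not overlap, and Falcor-/- replicate 7 was the lowest knockout. Dynlrb2, a dynein light chain, was 0.98 higher (SE 0.21, adjusted p = 0.00976) and Tppp3, a microtubule-binding protein, 0.67 higher (SE 0.14, adjusted p = 0.00809). Ccno, which drives the multiplication of centrioles in cells about to become ciliated, lay at 11.40, 10.76, 11.60, 11.85 and 10.98 against 10.57, 10.60, 10.42 and 10.13 (difference 0.89, adjusted p = 0.0115). Ccno, Tekt1, Foxj1, Myb and Trp73 were picked after their values were seen. Foxj1, the master factor of motile cilia, was 0.62 higher (adjusted p = 0.0212), though without Falcor-/- replicate 6 or Foxa2+/- replicates 13 or 14 it was not called. Trp73 (0.55, adjusted p = 0.0244) lost its call in the same 3 runs, and Myb (0.64, adjusted p = 0.0150) without Foxa2+/- replicate 13. The large outer arm dynein heavy chains Dnah5 and Dnah9 differed by 0.13 and 0.36 without a call, and Rfx2 and Rfx3, the factors that bind cilium gene promoters, by -0.10 and 0.08.

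The mean of the ciliated list was 12.93, 12.21, 12.50, 12.75 and 12.42 in Falcor-/- and 12.28, 12.30, 11.77 and 12.09 in Foxa2+/-. Falcor-/- replicate 7 lay within the heterozygotes, and Foxa2+/- replicate 13 was the lowest of all. Wild-type libraries ran from 12.27 to 12.55 and Double-Het libraries from 12.46 to 12.62, so Foxa2+/- replicates 13 and 14 lay below every library of the other genotypes and replicates 11 and 12 overlapped them. The count of 20 fell to 7 without Foxa2+/- replicate 13, to 12 without Falcor-/- replicate 6 and to 13 without Foxa2+/- replicate 14, and was 8 when the 9 libraries were fitted alone.

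Promoters of the ciliated genes often held the letters of an RFX factor motif, GTTGCCA or its reverse complement TGGCAAC. A match was present in 10 of the 34 tested members with a window (29.4%), and in 5 of the 17 called members with one (29.4%: Ccno, Drc1, Mns1, Tekt1 and Zmynd10), against 4.47% of all windows. The share was the same in tested and called members, so it does not set the called ones apart. The motif was chosen after the values were seen. The called members Ccno and Tekt1 are shown with the matches in capitals, as the 250 bases before the start, from GRCm38.p6 at chr13:112987552-112987801 (plus strand) and chr11:72361883-72362132 (minus strand):
Ccno: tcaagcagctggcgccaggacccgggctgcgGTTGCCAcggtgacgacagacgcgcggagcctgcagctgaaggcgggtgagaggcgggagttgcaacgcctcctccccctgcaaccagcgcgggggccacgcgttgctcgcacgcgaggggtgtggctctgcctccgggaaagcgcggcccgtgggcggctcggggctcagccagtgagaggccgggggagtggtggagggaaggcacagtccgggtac
Tekt1: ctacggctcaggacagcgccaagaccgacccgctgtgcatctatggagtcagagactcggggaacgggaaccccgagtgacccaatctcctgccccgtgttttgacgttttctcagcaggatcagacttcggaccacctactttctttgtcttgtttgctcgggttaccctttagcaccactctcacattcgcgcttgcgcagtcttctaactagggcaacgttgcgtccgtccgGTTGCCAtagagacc
Counted from the start, the Tekt1 match covers bases -15 to -9 and the Ccno match bases -219 to -213. Tekt1, a filament protein of the axoneme, was 0.68 higher in Falcor-/- (adjusted p = 0.0150), a call lost without Foxa2+/- replicate 13.

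Alveolar type 1 markers were also on the higher side in Falcor-/-. Of 20 tested, 6 were called higher and none lower (30.0% called, against 16.7% of all genes), with a median difference of 0.50. Hopx, a homeodomain-only factor of these cells, lay at 14.07, 14.07, 14.28, 14.91 and 14.88 against 13.56, 13.51, 13.29 and 13.49 (difference 0.98, SE 0.21, adjusted p = 0.00812). All knockouts exceeded all heterozygotes. Ager, the most abundant type 1 receptor gene, was 0.51 higher (adjusted p = 0.0148), Rtkn2 0.92 higher (adjusted p = 0.0157) and Sema3e, a guidance cue gene, 0.77 higher (adjusted p = 0.00274). The list mean was 13.84 to 13.90 in Foxa2+/-, 14.04 to 14.77 in Falcor-/-, 13.97 to 14.79 in wild type and 13.85 to 14.10 in Double-Het. Falcor-/- replicate 10, the highest of the knockouts here, was also the highest for endothelial markers (12.88). With each library's endothelial mean in the fit, none of the 20 was called, and only 75 of all 15249 genes were. Of that mean's variance 81.6% lay between genotypes, so that fit also takes away genotype differences. Of 22 alveolar type 2 markers, none was called by limma. An unadjusted limma p below 0.05 was found for 9 of them, all lower, against 5537 of all 15249 genes. Nearest to a call among the type 2 markers were Abca3, the lipid pump of lamellar bodies, at -0.48 (adjusted p = 0.0533) and Lcn2 at -0.51 (adjusted p = 0.0548). Without Falcor-/- replicate 7 or replicate 8, 5 type 2 markers were called lower in each case.

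Both gel-forming airway mucins were lower in Falcor-/-. Of 16 mucus genes tested, 5 were called lower, none higher (31.2% called, against 16.7% of all genes), and 11 were not called. Muc5b, the main airway gel mucin, lay at 12.98, 14.20, 12.35, 14.00 and 12.56 in Falcor-/- and at 14.73, 14.62, 14.60 and 15.48 in Foxa2+/- (difference -1.64, SE 0.39, adjusted p = 0.0145). Here too replicates 7 and 9 were the high knockouts, near the wild-type mean of 14.37. Muc5ac, the inducible mucin of goblet cells, showed the same order, at 7.49, 8.90, 7.06, 8.70 and 7.26 against 9.92, 9.27, 9.02 and 9.73 (difference -1.60, adjusted p = 0.0192), and lost its call without Foxa2+/- replicate 14. Foxa3, a forkhead relative linked to goblet cells, differed by -1.25 (adjusted p = 0.0155), called in every left-out run except that without Foxa2+/- replicate 13, and its wild-type mean of 6.23 was closer to the knockouts. Slc26a4, the anion exchanger pendrin, differed by -2.06 (adjusted p = 0.00876) with no overlap. Spdef, the factor that drives goblet cells, differed by -0.18 without a call, and Clca1 and Itln1 by 1.0 and 1.88, also without one. The count of 5 fell to 3 without Foxa2+/- replicate 13 or 14, and to 3 of 14 with only genes whose mean was 8 or more. Among club cell markers 1 of 22 was called, Muc5b itself, and 3 without Falcor-/- replicate 9.

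Of 20 ion and water transport genes, 7 were called lower, 1 higher, and 12 were not called. The share called was above the 16.7% of all genes tested, of which 8.10% were called lower. Aqp4, the water channel of basolateral membranes, lay at 10.76, 11.07, 10.63, 10.87 and 10.02 against 11.86, 11.97, 11.24 and 12.06 (difference -1.11, SE 0.21, adjusted p = 0.00577), and no library overlapped. Slc4a4, a bicarbonate transporter, differed by -0.89 (adjusted p = 0.0127), and Slc12a2, the cotransporter that loads chloride into secreting cells, -0.56 (adjusted p = 0.0102). The gene higher in Falcor-/- was Aqp1 (1.09), a water channel abundant in lung endothelium, picked after its values were seen. The chloride channel Cftr (-0.40) and the sodium channel subunits Scnn1a (-0.06) and Scnn1b (-0.22) were not called. The list mean was 12.36 to 12.69 in Falcor-/- and 12.72 to 13.06 in Foxa2+/-, with wild type at 12.55 to 12.82. With the 9 libraries fitted alone, 4 were called lower and none higher, and none was called higher either without Falcor-/- replicates 6, 9 or 10 or Foxa2+/- replicates 11, 12 or 13.

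A subset of genes controlled by NF-kB, the factor that switches on chemokines after injury or infection, was lower in Falcor-/- than in Foxa2+/-. Of 29 tested, 11 were called lower and none higher (37.9% called, against 16.7% of all genes), and the median difference was -0.45. Cxcl5, a neutrophil attractant made by lung epithelium, lay at 5.90, 5.81, 6.59, 8.61 and 5.54 against 10.54, 8.91, 8.82 and 10.30 (difference -3.15, SE 0.72, adjusted p = 0.0119). Cxcl1, which acts on the same receptor, lay at 9.64, 9.29, 8.78, 9.50 and 9.65 against 10.87, 10.45, 11.49 and 11.24 (difference -1.64, SE 0.25, adjusted p = 0.00148). The Cxcl1 groups did not overlap and its wild-type mean was 9.60, the level of the knockouts. Saa3, an acute phase protein, differed by -2.26 (SE 0.41, adjusted p = 0.00426), and Birc3, an inhibitor of apoptosis, -0.53 (SE 0.08, adjusted p = 0.00106). Ccl20, which draws dendritic cells and was picked after its values were seen, differed by -1.79 (adjusted p = 0.0321), a call lost in 6 left-out runs (without Falcor-/- replicates 6 or 10 or any single Foxa2+/- library). Cxcl2 (-0.93, adjusted p = 0.0805), Il6 (-0.56), Tnfaip3 (-0.44) and Nfkbia (-0.08) were not called, and Tnf and Il1a differed by 0.49 and 0.79 without a call.

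For this list the heterozygotes stood apart from the other 3 genotypes. Its mean was 11.92, 11.53, 11.85 and 11.85 in Foxa2+/-, 11.04 to 11.36 in Falcor-/-, 11.06 to 11.40 in wild type and 10.77 to 10.95 in Double-Het. The count of 11 fell to 4 without Foxa2+/- replicate 13, to 6 without Falcor-/- replicate 6 or Foxa2+/- replicate 11, and to 7 without Falcor-/- replicate 9 or 10 or Foxa2+/- replicate 14, and was 7 with the 9 libraries alone. Immediate early and heat shock genes, which cell dissociation can induce, had 0 of 33 called by limma. An unadjusted limma p below 0.05 was found for 7, all higher in Falcor-/-, against 5537 of all 15249 genes.

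Promoters of this list were searched on both strands for the core of an NF-kB site, GGG, any 3 bases and TTCC, again chosen after the values were seen. A match occurred in 9 of the 23 tested members with a window (39.1%) and in 4 of the 8 called ones (Ccl20, Csf1, Cxcl1 and Nfkb2), against 5.54% of all windows. The list holds genes known as NF-kB targets, so a share above that of all windows was built in. It does not bear on the genotype difference. The 250 bases before the start are shown for the chemokines Cxcl1 (GRCm38.p6, chr5:90890995-90891244, plus strand) and Ccl20 (chr1:83116516-83116765, plus strand), with the matches in capitals:
Cxcl1: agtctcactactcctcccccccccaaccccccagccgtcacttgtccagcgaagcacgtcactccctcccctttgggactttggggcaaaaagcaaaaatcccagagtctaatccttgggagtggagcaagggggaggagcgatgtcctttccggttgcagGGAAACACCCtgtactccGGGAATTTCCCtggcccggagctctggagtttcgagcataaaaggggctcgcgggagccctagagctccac
Ccl20: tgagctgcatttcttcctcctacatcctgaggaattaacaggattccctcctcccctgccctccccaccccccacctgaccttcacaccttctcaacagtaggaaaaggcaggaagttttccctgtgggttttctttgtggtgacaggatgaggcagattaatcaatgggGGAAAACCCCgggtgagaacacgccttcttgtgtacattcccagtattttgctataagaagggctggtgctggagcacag
Cxcl1 holds 3 matches, at bases -89 to -80 from the start and, overlapping each other, at -71 to -62 and -70 to -61. The Ccl20 match covers bases -80 to -71. No RefSeq window of Cxcl5 was used.

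**Figure D4:**
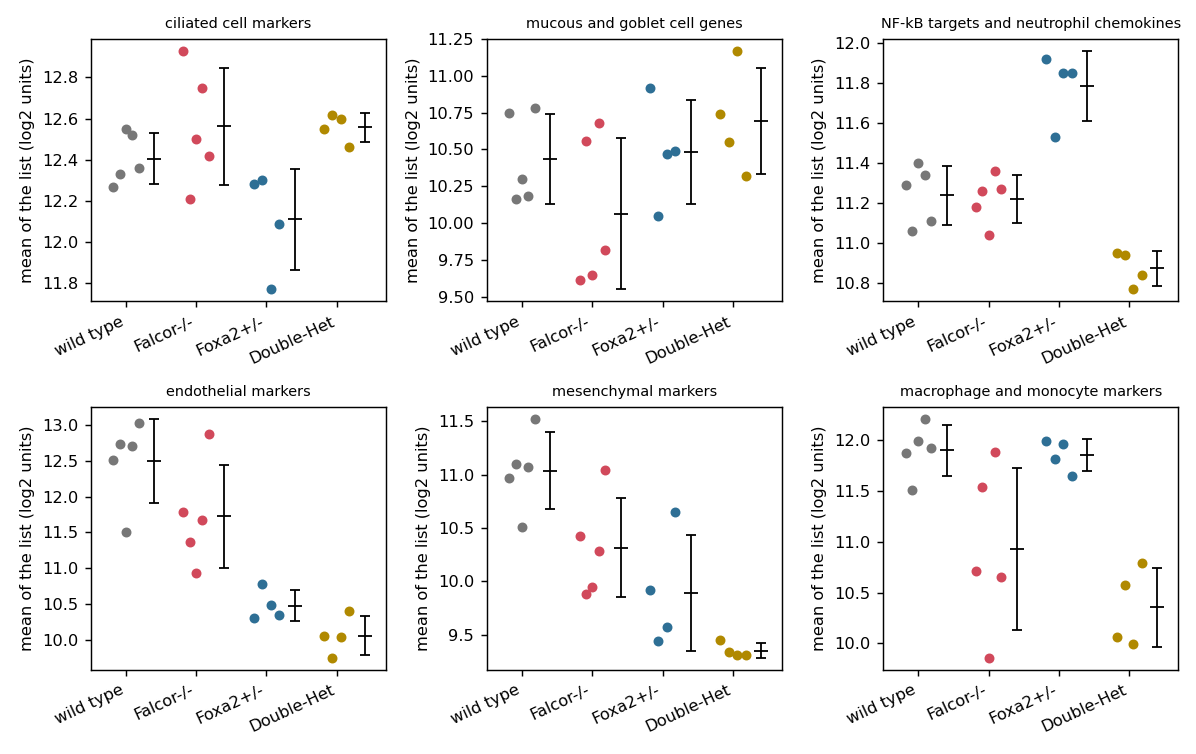
Mean level of the tested members of 6 gene lists (log2 units, vertical axes) in each of the 18 libraries by genotype; bars give mean and SD. The NF-kB list is highest in Foxa2+/- (11.53 to 11.92), and the macrophage list splits Falcor-/- into replicates 7 and 9 (11.54 and 11.88) and the other 3 (9.86 to 10.71).

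Some antigen presentation genes were higher in Falcor-/-. Of 22 MHC class I genes 9 were called higher and 1 lower (45.5% called, against 16.7% of all genes). Tap1, which pumps peptides to class I molecules, lay at 13.46, 13.14, 12.98, 12.91 and 13.17 against 12.67, 12.23, 12.23 and 12.58 (difference 0.71, SE 0.13, adjusted p = 0.00392). Its partner Tap2 was 0.55 higher (adjusted p = 0.00691), and the classical gene H2-K1 0.57 higher (adjusted p = 0.0119). For all 3 the wild-type means (12.44, 12.27 and 15.83) lay with the heterozygotes. The member called lower was H2-Q1, at 4.33, 7.86, 5.09, 4.73 and 7.96 against 9.80, 9.54, 10.06 and 9.32 (difference -3.69, SE 0.86, adjusted p = 0.0128). Its wild-type mean was 10.04 and its Double-Het mean 5.52. H2-Q1 and its relatives are near-identical copies whose reads can be shared, so single members are uncertain. Without Foxa2+/- replicate 13, 5 of the class I genes were called higher. MHC class II genes had 5 of 13 called higher and none lower (38.5% called). The count was 1 without Foxa2+/- replicate 12, 2 without replicate 13 or Falcor-/- replicates 6 or 9, and 3 without Falcor-/- replicate 10. The interferon list was split, 4 higher and 5 lower of 32 (28.1% called). Of its higher calls, Tap1 and Psmb8 are also counted among the class I genes, and are named here because both lists hold them. Oas2, a sensor of viral RNA, differed by -1.66 (adjusted p = 0.00660) and Irf9, a mediator of interferon signalling, by -0.83 (adjusted p = 0.00930). The interferon calls were 2 higher without Falcor-/- replicates 6 or 10, 1 higher and 3 lower without Foxa2+/- replicate 13, and 3 lower without Falcor-/- replicate 9 or Foxa2+/- replicate 14.

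Pathway genes showed no common direction. Notch signalling directs airway cells to the secretory rather than the ciliated fate. Of its 26 members tested, 7 were called higher and 4 lower (42.3% called, against 16.7% of all genes). Rbpj, its nuclear effector, differed by -0.79 (SE 0.10, adjusted p = 0.000613), at 11.92 to 12.27 in Falcor-/- against 12.65 to 13.17, and the wild-type mean of 12.96 lay with the heterozygotes. The co-activator Maml1 differed by -0.45 (adjusted p = 0.00705), whereas Mfng, a sugar transferase that tunes the receptors, and Hes6 were 0.76 and 0.67 higher (adjusted p = 0.00609 and 0.0119). Dll4 and Hey1, picked after their values were seen, had the largest called rises of the Notch list. Endothelial markers were also higher in Falcor-/- (median 1.39), and their part in the Notch calls was not tested. The Notch calls were 4 higher and 2 lower without Foxa2+/- replicates 13 or 14, and 2 lower without Falcor-/- replicate 10 or Foxa2+/- replicate 12. Wnt genes had 6 higher and 6 lower of 35 (34.3% called). Wif1, a secreted Wnt inhibitor, lay at 12.64, 11.48, 12.14, 12.02 and 11.92 against 10.51, 10.50, 10.18 and 10.66 (difference 1.58, SE 0.21, adjusted p = 0.000613), and the ligands Wnt3a and Wnt11 were 1.55 and 0.71 higher (adjusted p = 0.0124 and 0.00655). The Wnt target Axin2, picked after its values were seen, differed by -0.63 (adjusted p = 0.0259), a call lost without Falcor-/- replicates 6 or 9 or Foxa2+/- replicates 13 or 14. The 6 lower Wnt calls were 1 without any of Falcor-/- replicates 6, 9 or 10 or Foxa2+/- replicates 13 or 14, 3 without Foxa2+/- replicate 12, 10 without Falcor-/- replicate 7, and 1 with the 9 libraries alone. Tead2, a DNA-binding partner of YAP, was 1.5 higher (SE 0.22, adjusted p = 0.00130), and Id1 and Id3, targets of bone morphogenetic protein signals, were 0.94 and 1.11 higher (adjusted p = 0.00787 and 0.00772).

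Of 33 transcription factors of lung epithelium, 4 were called higher and 5 lower (27.3% called, against 16.7% of all genes), with a median of -0.14 and a range from -1.25 to 2.10. The higher calls include Foxa2 itself, of which a copy is missing by design in Foxa2+/-. Nkx2-1, the lineage factor of lung, differed by -0.11 (adjusted p = 0.372) and Foxa1, which shares many sites with Foxa2, by -0.30 without a call. Ehf, an epithelial ETS factor, differed by -0.50 (SE 0.11, adjusted p = 0.0119), at 12.50 to 13.05 in Falcor-/- against 13.16 to 13.35. The largest rise in this list, Tcf21 (2.10, adjusted p = 0.00914), is a factor of lung mesenchyme. The 5 lower calls were 2 without Falcor-/- replicates 9 or 10 or Foxa2+/- replicates 13 or 14, and 3 without Foxa2+/- replicate 12, and the 4 higher calls were 2 without Foxa2+/- replicate 13.

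Clock genes changed in opposed arms, with 5 of 19 called higher and 3 lower (42.1% called, against 16.7% of all genes). Arntl, the activator of the core loop, lay at 9.81, 9.44, 9.50, 9.91 and 9.15 in Falcor-/- against 10.42, 11.44, 10.94 and 11.16 (difference -1.43, SE 0.28, adjusted p = 0.00649), without overlap. Its partners Clock (-0.59, adjusted p = 0.0218) and Npas2 (-1.39, adjusted p = 0.0251) were lower as well. Bhlhe41, a repressor of the loop, was 0.88 higher (SE 0.17, adjusted p = 0.00609), and the output genes Per3 and Dbp were 0.77 and 1.77 higher (adjusted p = 0.0212 and 0.0297). Foxa2+/- replicate 11 stood with the knockouts for Dbp (13.10, against 11.30 to 11.48 in the other 3 heterozygotes), and wild-type libraries ran from 10.03 to 13.17, all below the lowest knockout at 13.18. The hour of collection is not given in the labels, and its part in the result was not tested. Of the 8 clock calls, 5 higher and 3 lower, only Arntl and Bhlhe41 among those named held in every left-out run. Clock lost its call without Falcor-/- replicate 9 or Foxa2+/- replicates 13 or 14, and Per3 without Foxa2+/- replicates 12, 13 or 14. The 5 higher calls fell to 1 without Foxa2+/- replicates 12, 13 or 14 and to 3 without Falcor-/- replicates 8 or 10, and the 3 lower calls to 1 without Foxa2+/- replicates 13 or 14. Npas2 and Dbp were picked after their values were seen. Without Falcor-/- replicate 10 or Foxa2+/- replicates 12, 13 or 14 Npas2 was not called, nor was Dbp without those or Falcor-/- replicates 6 or 8.

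Of 64 ribosomal protein genes tested, 62 had a positive difference, from -0.39 to 1.05 over the list, with a median of 0.32. Calls numbered 27, all higher (42.2% called, against 16.7% of all genes). Rpl15, of the large subunit, lay at 13.65, 13.59, 13.83, 13.91 and 13.68 against 13.38, 13.26, 13.35 and 13.29 (difference 0.41, SE 0.08, adjusted p = 0.00732), without overlap. The list mean was 14.43 to 14.89 in Falcor-/-, 14.23 to 14.42 in Foxa2+/- and 14.18 to 14.45 in wild type. Replicate 7 was again the knockout nearest to the heterozygotes. The count moved widely when a library was left out. It was 53 without Falcor-/- replicate 7, 14 without replicate 6 or 8, 6 and 7 without replicates 9 and 10, and 12, 3 and 5 without Foxa2+/- replicates 12, 13 and 14. Respiratory chain genes (48 of 49 positive, median 0.25) and proteasome subunits (28 of 31 positive, median 0.24) leaned the same way with 5 and 0 calls by limma. Of the 31 proteasome genes 18 had an unadjusted limma p below 0.05, all higher, against 5537 of all 15249 genes. The counts of calls became 27 and 21 without Falcor-/- replicate 7, and the respiratory count was 3 or fewer without any other single library.

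**Figure D5:**
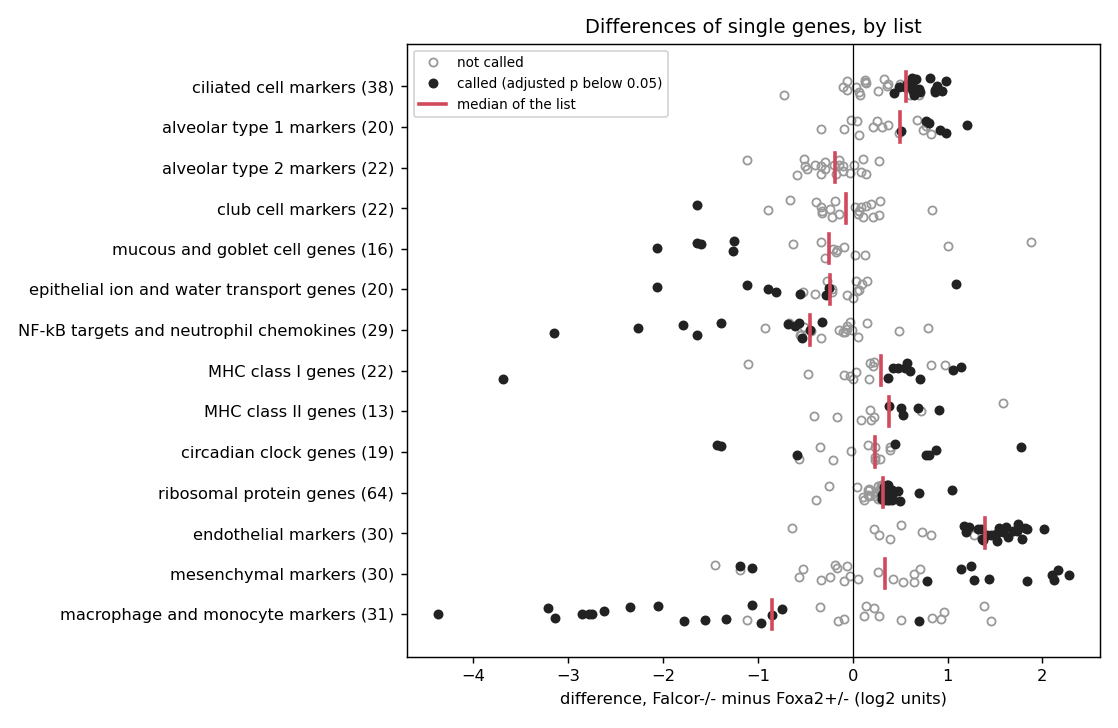
Difference of each tested gene, Falcor-/- minus Foxa2+/- (log2 units, horizontal axis), in 14 lists with the number tested in brackets; filled points are called and the bar marks the list median. Ciliated members are mostly positive (median 0.56) and NF-kB members mostly negative (median -0.45). Endothelial markers have a median of 1.39, and macrophage markers (median -0.85) spread widest, from -4.37 to 1.46.

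Some markers of cells other than epithelium differed between the genotypes. Endothelial markers had 22 of 30 called higher and none lower (73.3% called, against 16.7% of all genes), with a median of 1.39. Cldn5, the junction protein of blood vessels, lay at 12.91, 12.36, 12.44, 13.20 and 14.26 in Falcor-/- against 10.72, 11.50, 10.93 and 10.90 (difference 2.02, SE 0.36, adjusted p = 0.00424). The list mean was 10.94 to 12.88 in Falcor-/- and 10.31 to 10.78 in Foxa2+/-. Wild type ran from 11.50 to 13.03, overlapping the knockouts, and Double-Het from 9.75 to 10.40. Mesenchymal markers had 10 of 30 called higher and 2 lower, with Mfap4 and Inmt, of lung fibroblasts, 2.17 and 2.12 higher (adjusted p = 0.00260 and 0.00263), while Col6a1 and Col6a2, chains of collagen VI, differed by -1.19 and -1.06 (adjusted p = 0.0112 and 0.0119). Without Foxa2+/- replicate 13, 11 endothelial markers were called.

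Macrophage markers were the other way round, 16 of 31 lower in Falcor-/- and 1 higher (54.8% called, against 16.7% of all genes). Cd163, a scavenger receptor, lay at 9.57, 11.68, 8.50, 11.31 and 9.31 against 12.41, 12.36, 12.98 and 11.93 (difference -2.35, SE 0.47, adjusted p = 0.00691). Maf, a transcription factor of macrophages, differed by -1.78 (adjusted p = 0.0112), with replicates 7 and 9 again the high knockouts. The scavenger receptor Msr1 and the lectin Cd209f differed by -2.86 and -3.21 (adjusted p = 0.0127 and 0.0204), the second not called without Foxa2+/- replicate 12. Markers of alveolar macrophages such as Marco (1.46), Chil3 (0.96) and Siglecf (0.84), picked after their values were seen, had positive differences and no call. The list mean was 9.86 to 11.88 in Falcor-/-, 11.65 to 11.99 in Foxa2+/-, 11.51 to 12.21 in wild type and 9.99 to 10.79 in Double-Het. The 16 lower calls were 6 without Foxa2+/- replicate 13, 10 without replicate 12 or Falcor-/- replicate 6, 9 without Falcor-/- replicate 10, and 5 with the 9 libraries alone. Lymphocyte markers had 5 of 19 called higher (26.3% called), among them the T cell receptor genes Trbc1 (1.51) and Cd3g (1.75). The count was 3 or 2 without Falcor-/- replicates 6, 9 or 10 or Foxa2+/- replicates 12 or 13. With only genes whose mean was 8 or more, 1 of 13 lymphocyte markers was called, with a median of 0.03. Beside the epithelial, mucus and chemokine results these values are given because they differ between the same libraries, and their part in those results was not tested gene by gene. With the endothelial mean of each library as a covariate, 75 genes were called, 71 of them among the 2540, and the calls left in the lists above were few: 1 ciliated marker and none of the type 1, mucus, NF-kB or class II genes. The medians behaved differently. In that fit the ciliated median was 0.56, as without the covariate, that of class II genes 0.50 (0.38 without), of ribosomal genes 0.34 (0.32) and of macrophage markers -1.05 (-0.85). The type 1 median was 0.00 (0.50), that of NF-kB genes -0.22 (-0.45) and of mucus genes -0.08 (-0.25). Of that covariate's variance, 81.6% lay between genotypes, so that fit also takes away genotype differences.

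The remaining lists are read against the 16.7% called over all genes. Above it stood fibroblast growth factor genes (31.6%, 3 of 19 in each direction, led by Fgfr4), TGF-beta genes (27.6%, 5 of 29 higher and 3 lower, among them Ltbp2 at 1.05 and Tgfb3 at -0.94), Hippo genes (27.3%) and collagen genes (22.2%, 2 of 27 higher and 4 lower). Of 22 Hippo genes Tead2 was called higher and 5 lower, the latter by 0.40 or less. The list of genes around Foxa2 had 2 of 13 in each direction and type 2 inflammation genes 2 of 15 higher and 1 lower. Unfolded protein response genes (17.2%) had 5 of 29 lower, including the sensors Ern1 (-0.58) and Ern2 (-1.26, the form of mucus-secreting epithelia). Epithelial junction genes (18.8%) had 3 of 32 in each direction and neuroendocrine genes (16.7%) 2 of 12 higher. Below the share over all genes stood surfactant lipid and sterol genes (9.68%, 3 of 31 lower, with Acaca, the first enzyme of fatty acid synthesis, at -0.79), xenobiotic and glutathione enzymes (11.8%, 1 of 34 higher and 3 lower, with the aldehyde oxidase Aox3 at -0.98), retinoid genes (12.5%, 2 of 16 lower) and cell cycle genes (5.71%, 2 of 35 higher). Among short marker lists of other cells, 2 of 6 red cell and platelet genes were higher and 1 lower, 2 of 6 cardiac and 2 of 8 neural genes were higher, and 1 of 7 granulocyte and mast cell genes was higher (Kit). Basal (14 tested), mesothelial (10) and sex (6) genes had 0 calls by limma. An unadjusted limma p below 0.05 was found for 3, 2 and 3 of them, against 5537 of all 15249 genes.

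Most of these small counts moved by over 1.5 times when a library was left out. Surfactant lipid genes had 8 lower without Falcor-/- replicate 7 and 1 without Falcor-/- replicates 9 or 10 or Foxa2+/- replicates 12, 13 or 14. Xenobiotic enzymes had 6 lower without Falcor-/- replicate 7, 5 without replicate 9 and 1 without Foxa2+/- replicate 13. Cell cycle genes had 6 higher without Foxa2+/- replicate 11 and none without Falcor-/- replicates 6, 9 or 10 or Foxa2+/- replicates 12, 13 or 14. Neuroendocrine genes had 4 higher without Falcor-/- replicate 7, 1 without Falcor-/- replicate 10 or Foxa2+/- replicates 11 or 12, and none without Falcor-/- replicates 6 or 9 or Foxa2+/- replicate 13. Unfolded protein response genes had none lower without Foxa2+/- replicate 13, 1 without Falcor-/- replicate 10 or Foxa2+/- replicate 14, 2 without Falcor-/- replicates 6 or 9 or Foxa2+/- replicate 12, and 3 without Foxa2+/- replicate 11. The 5 lower Hippo calls were 3 without Falcor-/- replicate 6, 2 without Falcor-/- replicates 9 or 10 or Foxa2+/- replicate 12, and 1 without Foxa2+/- replicates 13 or 14. TGF-beta genes had 3 higher without Falcor-/- replicates 6 or 10 or Foxa2+/- replicate 13, and 1 lower without Falcor-/- replicate 9 or Foxa2+/- replicates 12 or 13. Fibroblast growth factor genes had 6 lower without Falcor-/- replicate 7, 1 lower without Falcor-/- replicates 6 or 8 or Foxa2+/- replicate 12, 1 higher without Falcor-/- replicate 9, and 1 higher and 0 lower without Foxa2+/- replicate 13. Junction genes had 6 lower without Falcor-/- replicate 7 and 1 in each direction without Foxa2+/- replicate 13.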

How the data were processed

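The files hold 1 deposited log2 level per gene and library for 18 libraries. Per the submitters' processing notes the authors used STAR, the mm9 genome and limma; the read counter, its annotation and the tools' versions were not stated in the labels. Within the top 90% of ranks, libraries differed by at most 0.051 log2 units at the same rank, so the values had been quantile normalized: depth is unknown, shared shifts cannot be seen, and no pseudocount was added. Replicate numbers are those of the titles.

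Symbols came from GENCODE vM21 by Ensembl identifier (14994 of 15544 matched). Genes with a mean under 6 were left out (295). limma 3.58.1 in R 4.3.3 fitted 1 mean per genotype to all 18 libraries (14 residual degrees of freedom, empirical Bayes with intensity trend), and the contrast Falcor-/- minus Foxa2+/- was tested on both sides with Benjamini-Hochberg adjustment over 15249 genes. Single genes also had an exact permutation test, two-sided, of the difference of means. On data simulated for this comparison with 15249 genes, 41.8%, 74.6% and 98.5% of genes shifted by 0.5, 1 and 2 log2 units were recovered, and 4.67% of calls were false. The simulated noise was independent between genes and equally wide in all genotypes. In these libraries the median SD was 0.229 in Falcor-/- and 0.143 in Foxa2+/-. The simulated share of false calls is therefore not an estimate for the 2540 calls.

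Gene lists, 43 in all, are described by counts and medians without a test. The comparison and the lists were chosen with earlier results of these data known. Named genes are Foxa2, Falcor, the 12 largest rises and falls among called genes whose groups do not overlap (leaving out predicted genes, RIKEN clones, pseudogenes, immunoglobulin segments and sex genes), and up to 4 called members of each list with the smallest p. Genes outside this are said to be picked after their values were seen or are uncalled members given by value. Promoter windows are RefSeq's on GRCm38.p6, 1 per gene; no mm9 coordinates were used. Alternatives were other filters, fits, weights and scalings, an endothelial covariate, and leaving out each library. Results on some named genes are not reported here.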

Additional observations from a re-analysis of the deposited data

Results flagged for a closer look

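In 20 of 380 groups of 4 or 5 libraries checked, 1 library stood apart from the others of its genotype; chance alone flags about 1 in 20 groups, so the total is near the number chance gives. In Falcor-/-, replicate 6 was high for Aass (14.81), Aldh1a2 (9.50), Bhlhe41 (11.48) and Cyp2s1 (15.93). Replicate 10 was high for Tcf21 (10.12), Ecscr (10.98) and Gata3 (8.75), of which the first is a mesenchymal and the second an endothelial marker, and that library also had the highest endothelial mean. Replicate 9 was low for Irf9 (11.73), high for the mean of the xenobiotic enzymes (12.85) and low for the mean of the Wnt genes (10.32), and replicate 7 was low for Id3 (11.78). In Foxa2+/-, replicate 13 was low for Cfap126 of cilia (11.41), Tcf21 (6.13) and Ndufb7 (11.87) and high for Spred1 (13.42). Replicate 14 was high for Muc5b (15.48) and Tead3 (12.26), and replicate 12 was high for Ugt1a6a (11.63). Replicate 11 was low for the mean of the alveolar type 1 markers (13.84) and for the mean of the granulocyte and mast cell markers (9.47).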

How the results depend on the processing

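The difference of Falcor stayed called under every alternative run, from -5.76 to -5.29 when each library was left out. Foxa2 stayed higher in Falcor-/- throughout, from 0.28 to 0.42 over the left-out libraries, but at 0.34 was not called when the 9 libraries were fitted alone or quantile normalized again (adjusted p = 0.0746 in both). The main counts were 2540 called genes, 1305 higher and 1235 lower. The 9 libraries alone gave 1181 (670 higher, 511 lower), of which 1133 were among the 2540, and quantile normalized again 1190 (676 and 514). Estimated library weights gave 4757 (2239 and 2518), and the endothelial covariate 75 (44 and 31). Leaving out 1 library gave 764 to 4742 (433 to 2288 higher and 331 to 2454 lower). No filter, a mean of 8 or more, no intensity trend, robust moderation, median scaling and leaving out both Falcor-/- replicates 7 and 9 stayed within 1.5 times the main counts. Of 138 named called genes, 37 lost their call with the 9 libraries alone, 45 without Foxa2+/- replicate 13 and 129 with the endothelial covariate, under which Piezo2 (-0.01) and the uncalled Cav2 (-0.04) changed sign; the cause was not tested. No paired analysis was possible because the groups share no replicate numbers. Depth is unknown, so no counting error is given, and the levels of the highest genes are set by their rank in the normalization.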

Other observations

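Some pseudogenes, picked after their values were seen, differed widely between the genotypes. Ftl2-ps, a processed ferritin pseudogene, lay at 12.76 to 13.91 in Falcor-/-, 4.95 to 5.71 in Foxa2+/- and 4.43 to 6.06 in wild type (difference 8.14, adjusted p = 0.000304). In Double-Het it was uneven, at 6.28, 5.81, 12.64 and 8.17 in replicates 15 to 18. The processed pseudogene Gm10020 went the other way, at 4.51 to 5.51 in Falcor-/- and 9.93 to 10.98 in Foxa2+/- (difference -5.47, adjusted p = 0.000822). Its wild-type libraries lay at 9.82 to 10.13 and the Double-Het libraries at 10.28, 5.81, 5.03 and 5.03. Both calls held without any single library. Reads of processed pseudogenes can be shared with their parent genes, so both levels are uncertain.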
